A study of Bos taurus with 15 samples.

Results

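NEAT1 is a long noncoding RNA that stays in the nucleus and forms the scaffold of paraspeckles, small nuclear bodies that hold back proteins and RNAs. Paraspeckles assemble as NEAT1 is transcribed. Proteins of the DBHS family, SFPQ, NONO and PSPC1, coat and stabilise the longer NEAT1 isoform, RBM14 joins the ribonucleoproteins into a body, and the cleavage factor I subunits CPSF6 and NUDT21 favour polyadenylation of the short isoform, which does not build a paraspeckle on its own. In mice, loss of Neat1 is known to impair the corpus luteum and pregnancy, and the paraspeckle enzyme CARM1 is known for its part in the first lineage choice of the embryo.

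The genes described here are NEAT1 and 7 protein genes of the paraspeckle, SFPQ, NONO, PSPC1, RBM14, MATR3, CPSF6 and NUDT21, taken by symbol from the table of read counts. All 8 are among the 10832 genes that remained after the removal of genes with few reads, out of 34773 genes counted. NEAT1 was selected on its level in these same libraries, which was already known to be higher with both oEV treatments than in controls, and the protein genes were taken for their place in the paraspeckle. Its differences from controls are therefore given as a description, with no test. NEAT1 is listed as LOC104976804, and the study assigned the name by hand to this locus of chromosome 29. A later bovine RefSeq annotation (ARS-UCD2.0) has no entry for this identifier. MALAT1, a long noncoding RNA gene beside NEAT1 in mammals, was not analysed here, and whether reads of MALAT1 are counted under the NEAT1 identifier could not be settled, so every NEAT1 value is that of the locus listed as LOC104976804. This locus had 25834 counts in all 15 libraries together. The count covers the whole locus, so the short and long NEAT1 isoforms cannot be told apart.

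RNA was sequenced from pooled bovine blastocysts labelled as day 7 (the methods describe 8 days of culture), which were produced in vitro and cultured without oviductal extracellular vesicles (oEVs) as a control (Co), with fresh oEVs (FeEV) or with oEVs that had been frozen and thawed (FoEV). The oEVs came from oviducts of slaughtered cows in the postovulatory stage. According to the study, vesicles of the same oviducts were divided between FeEV and FoEV, so these treatments share their source. There were 5 libraries per treatment, each from 1 ng of RNA of 1 pool of 8 to 14 embryos, so a value is a mean over all cell types of several embryos. More pools had been collected, and those sequenced were picked for the quality and amount of their RNA. The labels describe the pools as replicates but do not say whether they came from separate cultures, so the p-values measure only the spread between these pools.

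Libraries held 2136713 to 4058887 counts, and every FoEV library (3392613 or more) was deeper than every Co library (2977004 or fewer). Trophectoderm markers were all measured (6 of 6), as were those of the inner cell mass (3 of 3). Of the 6 cumulus and granulosa cell markers, PTX3, TNFAIP6 and AMH had at most 3 counts in any library and HAS2 at most 13, while CYP19A1 had 36 to 140 and FSHR 14 to 43. In the oviduct epithelium list, OVGP1 had at most 6 and FOXJ1 at most 4 counts, while PAX8 had 12 to 46 and TPPP3 11 to 52. Levels are given as CPM, read counts relative to the library total, scaled by TMM factors, which correct for unequal library composition. The quasi-likelihood test of edgeR was fitted over all 10832 genes, and calls were made where its adjusted p was under 0.05.

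NEAT1 levels in both oEV treatments lay above those of controls. In Co, NEAT1 was at 265, 415, 352, 272 and 353 CPM in replicates 1 to 5. In FeEV it was at 573, 533, 776, 485 and 673 CPM, and in FoEV at 739.8, 703, 432, 580.3 and 723 CPM. All 10 oEV libraries lay above all 5 Co libraries, with FoEV replicate 3 the nearest to Co replicate 2, at 432 against 415 CPM. The gap depended on the scaling. With CPM left without TMM factors, FoEV replicate 3 was at 427 and Co replicate 2 at 453, and 9 of the 10 oEV libraries lay above all Co libraries. No other gene of the 8 was without overlap in either comparison with Co, and 0 of the 8 were in FoEV against FeEV. Over all genes, groups did not overlap in 2.6% (1.26% higher and 1.35% lower) for FoEV against Co, in 0.951% (0.535% higher and 0.415% lower) for FeEV against Co, and in 1.5% (0.757% higher and 0.748% lower) for FoEV against FeEV, and 0.138% were higher in every library of both oEV groups than in every Co library.

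**Figure D1:**
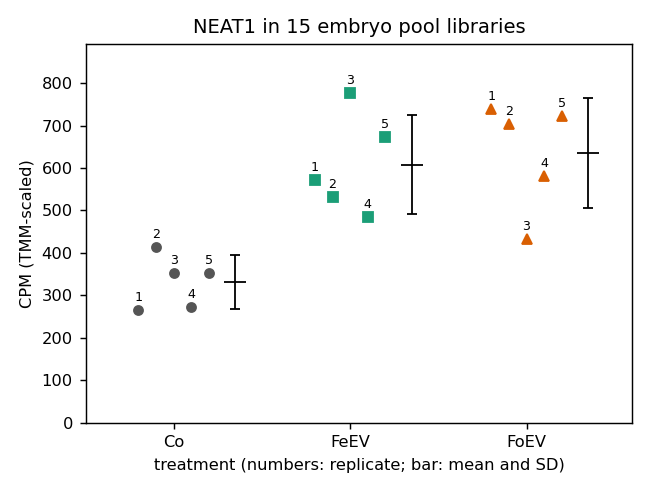
NEAT1 in CPM scaled by TMM (vertical axis, from 0) in the 5 libraries each of Co, FeEV and FoEV, numbered by replicate, with the mean and SD beside each group. The Co libraries sit between 265 and 415 CPM and the oEV libraries between 432 and 776 CPM, while without TMM factors FoEV replicate 3 (427) lies below Co replicate 2 (453).

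The NEAT1 mean was 331 ± 63.0 CPM (SD, n = 5) in Co, 608 ± 117 with fresh and 636 ± 129.9 with frozen oEVs. The log2 fold change of FoEV against Co was 0.94 (standard error, SE, 0.16, 95% interval 0.59 to 1.28), a level 1.92 times that of Co. For FeEV against Co the log2 fold change was 0.88 (SE 0.16, 95% interval 0.53 to 1.22), or 1.84 times. Both comparisons share the same Co libraries.

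Fresh and frozen oEVs were not distinguishable in NEAT1. The gene was chosen for a high level in both oEV groups, so this comparison is not free of that choice and is a description too. The log2 fold change of FoEV against FeEV was 0.06 (SE 0.16, adjusted p = 0.926 by edgeR), with a 95% interval from -0.28 to 0.40. FoEV replicate 3 alone lay below the FeEV range, and no FoEV library lay above it.

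If each read is taken as a separate molecule, NEAT1 read numbers made the counting error small beside the spread between pools. There were 677 to 1230 NEAT1 reads in Co, 1064 to 2480 in FeEV and 1568 to 3195 in FoEV. As a share of all counts, Co replicate 1 had the lowest value, 0.0250% (95% Wilson interval 0.0233% to 0.0269%), and FeEV replicate 3 the highest, 0.0809% (0.0778% to 0.0841%). Such intervals cover only the counting error of separate reads. The libraries were amplified, so reads can be copies of 1 molecule, and the error in counting molecules can be larger. Over 9 alternative settings, the log2 fold changes of NEAT1 against Co ran from 0.82 to 0.99 for FoEV and from 0.73 to 0.88 for FeEV. At equal depth, with every library thinned to the smallest, they were 0.96 and 0.88.

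The ratio of NEAT1 to its protein partners needs no scaling of libraries. For every 100 reads of the 7 protein genes together, there were 18.2 to 27.5 NEAT1 reads in Co, 32.3 to 59.5 in FeEV and 31.4 to 62.9 in FoEV. The Co range did not overlap with that of either oEV treatment. For every 100 reads of SFPQ, there were 51.1 to 88.7 NEAT1 reads in Co, 108 to 211 in FeEV and 103 to 236 in FoEV, again without overlap. These are ratios of read counts, and as NEAT1 was chosen for its level, they are descriptions too. SFPQ itself averaged 463 CPM in Co, 417 in FeEV and 361 in FoEV, and a lower SFPQ also raises the ratio to it.

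Other features of the libraries differed between treatments. Small nuclear and small nucleolar RNA genes took 0.145% to 0.308% of counts in Co, 0.163% to 0.280% in FeEV and 0.266% to 0.576% in FoEV. The summed level of the 6 trophectoderm markers was 6295 to 8524 CPM in Co, 6876 to 10310 in FeEV and 8176 to 11051 in FoEV. This sum follows mainly the keratins KRT8 (9003 to 25901 counts in a library) and KRT18 (5598 to 19811). The other markers of the list had at most 973 counts each. In FoEV against Co all 6 markers were higher, 4 of them at an unadjusted p under 0.05 (8.18% of all genes). In FeEV against Co all 6 were higher too, 0 of them at an unadjusted p under 0.05 (1.83% of all genes). For the inner cell mass (SOX2, NANOG, POU5F1) the summed level was 231 to 304 CPM in Co, 229 to 289 in FeEV and 217 to 334 in FoEV. POU5F1 had the most counts of them, 399 to 840 in a library. Of these 3 genes, 2 lay lower in each of the comparisons with Co, 1 of them at an unadjusted p under 0.05 (6.88% of all genes in FoEV and 2.32% in FeEV), and the lowest log2 fold change was -0.84 in FoEV and -0.62 in FeEV. For the hypoblast list the sum was 492 to 749, 521 to 642 and 512 to 647. The cumulus list summed to 24.7 to 37.4, 25.7 to 44.5 and 23.5 to 43.7 CPM, and the oviduct list to 13.1 to 24.4, 13.6 to 17.7 and 11.5 to 24.1 CPM, in the same order of treatments. Ribosomal RNA took 15.5% to 28.0% of counts in Co, 16.3% to 26.0% in FeEV and 15.9% to 28.2% in FoEV. Their part in the NEAT1 level was not tested, and in pools more NEAT1 per cell and more cells with NEAT1 cannot be told apart.

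Long noncoding RNAs, a class looked at after its values were seen, lay on both sides of 0. Of the 94 long noncoding RNA genes of the later annotation that passed the authors' filter, 52 lay higher and 42 lower in FoEV than in Co (median log2 fold change 0.02). For FeEV against Co, 46 lay higher and 48 lower (median -0.01). In FoEV, 6 of the higher and 3 of the lower ones had an unadjusted p under 0.05, and in FeEV 0 and 2, beside 8.18% higher and 6.88% lower of all genes in FoEV and 1.83% and 2.32% in FeEV.

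Calls are given for the 7 protein genes, since NEAT1 was selected on its differences from Co. In FoEV against Co, 0 of the 7 were called by the quasi-likelihood test of edgeR at an adjusted p under 0.05, with 0.00923% of all genes called. At an unadjusted p under 0.05, 1 of the 7 passed, SFPQ, which was lower, beside 15.1% of all genes. The call depended on the test. SFPQ was the 1 gene of the 7 called by the robust dispersion and likelihood ratio test that the methods name (2.87% of all genes), by the Wald test of DESeq2 (2.4% of the genes with an adjusted p) and in the fit without the filter on low counts (0.679% of its genes). Among the 7 protein genes, 3 lay higher and 4 lower (median log2 fold change -0.04, beside 0.01 over all filtered genes).

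For FeEV against Co, 0 of the 7 protein genes were called by edgeR at an adjusted p under 0.05 (0% of all genes). At an unadjusted p under 0.05, 1 of the 7 passed, PSPC1, which was higher, beside 4.15% of all genes (1.83% higher and 2.32% lower). The likelihood ratio test (0.0554% of all genes), the Wald test of DESeq2 (0.00923%) and the fit without the filter (0.051%) called 0 of the 7. Of the 7 protein genes, 5 lay higher and 2 lower, with a median of 0.05. In FoEV against FeEV, 0 of the 8 were called by edgeR (0% of all genes), by the likelihood ratio test (0.286%), by DESeq2 (0.0277%) or without the filter (0.0864%), and 0 had an unadjusted p under 0.05 in edgeR (8.52% of all genes, 4.83% higher and 3.69% lower).

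**Figure D2:**
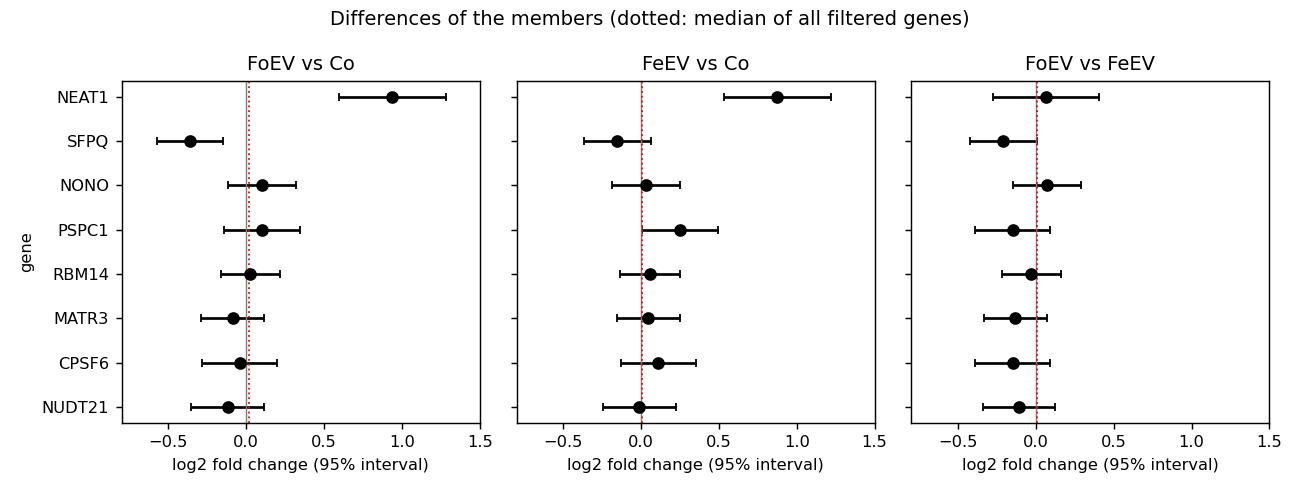
Log2 fold change (horizontal axis) of the 8 genes in the 3 comparisons, with 95% intervals from the edgeR fit and a dotted line at the median of all filtered genes. NEAT1 stands at 0.94 and 0.88 against Co and at 0.06 between oEV treatments, and SFPQ at -0.36 in FoEV against Co.

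Of the DBHS proteins, SFPQ binds RNA and DNA, represses transcription of some genes and is needed for the long NEAT1 isoform. SFPQ (gene 618226) was at 495, 468, 402, 531 and 421 CPM in Co. In FeEV it was at 406, 491, 368, 443 and 379.6 CPM, and in FoEV at 314, 332, 418, 337 and 403 CPM. SFPQ was lowest on average in FoEV, where 3 of the 5 libraries lay below every Co library, and the groups overlapped. Mean SFPQ was 463 ± 53.0 CPM (SD, n = 5) in Co, 417 ± 50.2 with fresh and 361 ± 46.5 with frozen oEVs.

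The log2 fold change of SFPQ in FoEV against Co was -0.36 (SE 0.10, adjusted p = 0.137 by edgeR, 95% interval -0.58 to -0.15). The difference did not pass the threshold in this test, while the adjusted p was 0.0388 in the likelihood ratio test, 0.0412 in DESeq2 and 0.0364 in edgeR without the filter on low counts. Over all 9 alternative settings it ran from 0.0364 to 0.225. FeEV lay between the other treatments. Against Co the SFPQ log2 fold change was -0.15 in FeEV (SE 0.10, adjusted p = 1.00 by edgeR), and that of FoEV against FeEV was -0.21 (SE 0.10, adjusted p = 0.583 by edgeR), so FeEV was not distinguished from either neighbour.

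NONO pairs with SFPQ in most cells and is likewise needed for paraspeckles. NONO (gene 615175) was at 164, 161, 172, 177 and 151 CPM in Co and at 151, 173, 163, 189 and 168 CPM in FeEV. In FoEV it was at 199.6, 202, 149, 198 and 138 CPM. The FoEV libraries fell on both sides of the Co range, with 3 above every Co library and 2 below. Their SD was 31.0 CPM, against 9.94 in Co and 14.1 in FeEV. For NONO, the log2 fold change in FoEV against Co was 0.10 (SE 0.11, adjusted p = 0.674 by edgeR, 95% interval -0.12 to 0.32).

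PSPC1, paraspeckle component 1, is the remaining DBHS protein. PSPC1 (gene 506696) was at 49.6, 78.9, 66.8, 60.6 and 54.2 CPM in Co. In FeEV it was at 76.9, 77.6, 70.4, 63.8 and 80.2 CPM, and in FoEV at 61.8, 69.6, 58.7, 74.5 and 68.7 CPM. All 3 groups overlapped, and the widest spread was in Co. The log2 fold change in FeEV against Co was 0.25 (SE 0.12, adjusted p = 1.00 by edgeR, 95% interval 0.01 to 0.50), and in FoEV against Co 0.10 (SE 0.12, adjusted p = 0.718 by edgeR). The gene was thus not called in either comparison.

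RBM14 carries a prion-like domain that helps paraspeckles to hold together, and MATR3 is a nuclear matrix protein that binds RNA and has been found with paraspeckle proteins. RBM14 (gene 511512) was the steadiest of the 8 genes. It ranged from 75.1 to 94.1 CPM in Co, from 78.7 to 96.1 in FeEV and from 81.2 to 95.3 in FoEV. In FoEV, 4 libraries lay within 81.2 to 82.9 CPM, and replicate 3 stood apart at 95.3. For RBM14, the log2 fold change was 0.03 in FoEV (95% interval -0.16 to 0.22) and 0.06 in FeEV (-0.14 to 0.25) against Co. MATR3 (gene 505129) ranged from 370.4 to 490.2 CPM in Co, from 393 to 473 in FeEV and from 325 to 448 in FoEV. Its log2 fold change was -0.09 in FoEV (95% interval -0.29 to 0.12) and 0.05 in FeEV (-0.16 to 0.25) against Co.

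CPSF6 and NUDT21 form cleavage factor I, which sets where transcripts are cleaved and polyadenylated. CPSF6 (gene 768231) had 167 ± 27.6 CPM (SD, n = 5) in Co, 181 ± 17.0 with fresh and 162 ± 25.2 with frozen oEVs. NUDT21 (gene 518859) had 57.7 ± 7.41 CPM in Co, 57.2 ± 4.29 in FeEV and 53.1 ± 6.69 in FoEV. Neither was distinguished between treatments. The log2 fold change of CPSF6 was -0.04 in FoEV (95% interval -0.28 to 0.20) and 0.11 in FeEV (-0.13 to 0.35), and that of NUDT21 -0.12 in FoEV (-0.35 to 0.11) and -0.01 in FeEV (-0.25 to 0.22) against Co. In FoEV against FeEV, the log2 fold changes of the 7 protein genes lay between -0.21 and 0.07, 6 lower and 1 higher, with a median of -0.13 beside 0.01 over all filtered genes. The intervals are wide enough that equal levels are not shown for any of them.

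**Figure D3:**
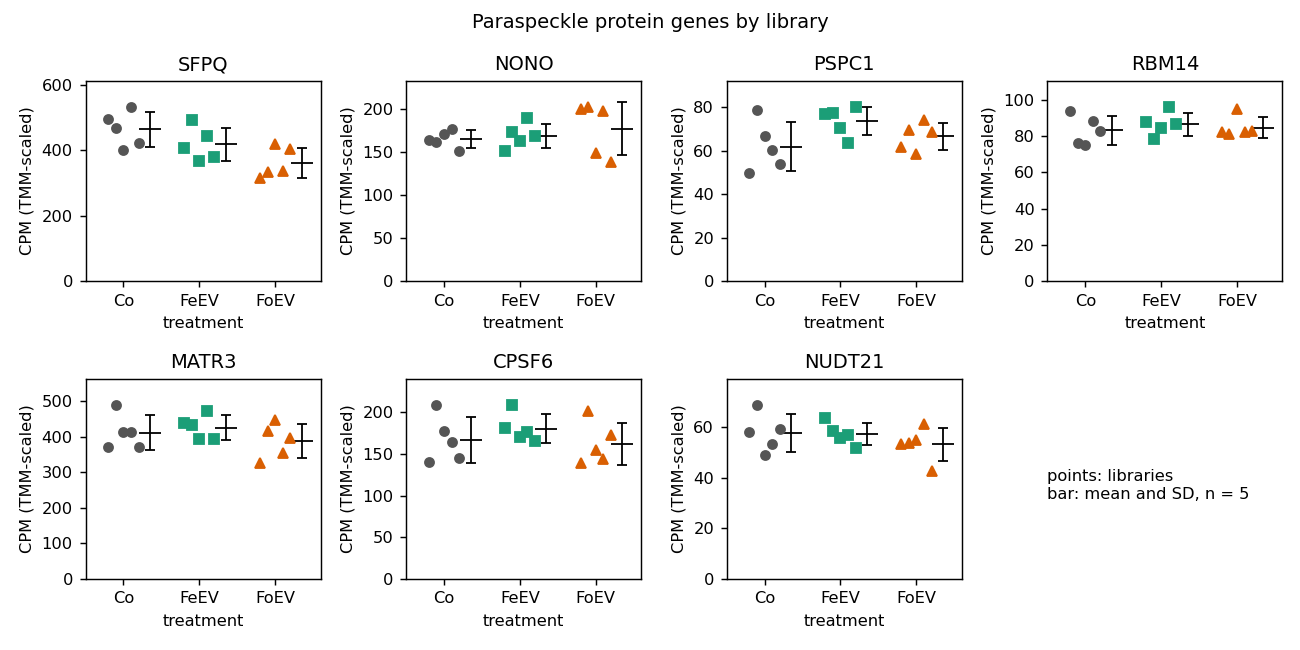
CPM scaled by TMM (vertical axes, from 0) of the 7 protein genes in the 5 libraries each of Co, FeEV and FoEV, with the mean and SD beside each group. The groups overlap in all 7 panels, SFPQ is lowest on average in FoEV (361 CPM), and NONO in FoEV falls apart into 3 libraries near 200 CPM and 2 at 149 and 138 CPM.

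NEAT1 also varied more than its partners among pools of the same treatment. The SD within treatments was 0.29 on the log2 CPM scale for NEAT1, above that of 75.3% of the genes with a mean of at least 10 CPM. The 7 protein genes had SDs from 0.11 (RBM14, above 4.73% of genes) to 0.20 (CPSF6, above 39.4%), all below the median gene at 0.22. In coefficients of variation, NEAT1 was at 19.0% in Co, 19.2% in FeEV and 20.4% in FoEV.

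SFPQ was among the genes least like NEAT1 across libraries. Correlations were computed across the 15 libraries as a description, and libraries share scaling and total RNA composition. Without subtraction of the treatment means, r and the ranks on it take in the differences from Co on which NEAT1 was selected. Pearson r with NEAT1 on log2 CPM was -0.75 for SFPQ, which ranked 8594 of 8616 genes from the most like to the least like, and 0.59 for PSPC1, ranked 177. After the treatment means were subtracted, r was -0.67 for SFPQ, -0.72 for RBM14 and 0.51 for PSPC1, and between -0.25 and 0.26 for the other 4 protein genes. The median over all genes was 0.01 before and 0.00 after subtraction.

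**Figure D4:**
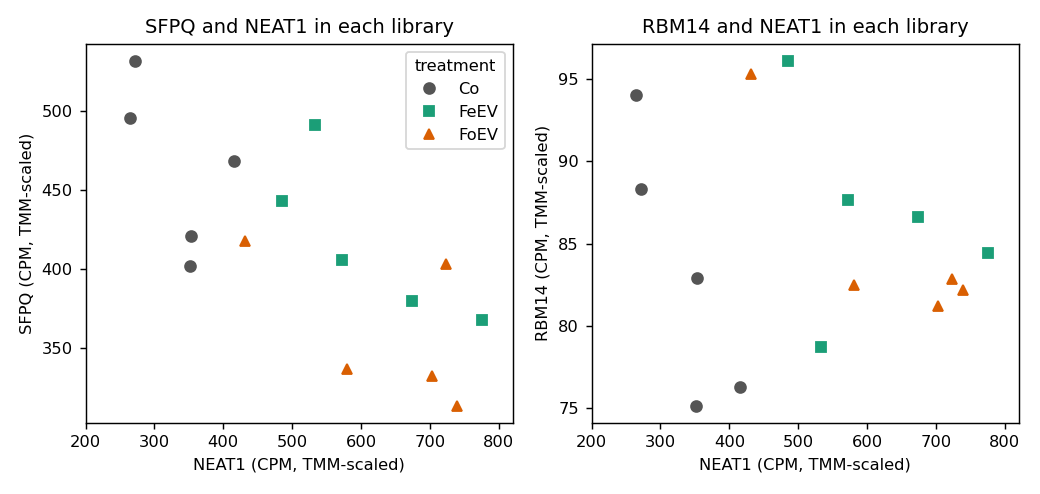
SFPQ (left) and RBM14 (right) against NEAT1, in CPM scaled by TMM, with 1 point per library and a symbol per treatment; the axes do not start at 0. FoEV replicate 3, the library at 432 CPM of NEAT1, has the highest SFPQ (418 CPM) and RBM14 (95.3 CPM) of its group.

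The 5 genes with the pattern most like NEAT1 across the 15 libraries were SYNJ2 (r = 0.92), LRRC2 (0.88), MTMR11 (0.87), LOC101907335 (0.85) and AURKC (0.84). That ranking takes in the differences from Co on which NEAT1 was selected. SYNJ2 is a phosphoinositide phosphatase and AURKC an aurora kinase of germ cells and early embryos. After subtraction of the treatment means, they were SYNJ2 (r = 0.87), EML2 (0.86), NUDT12 (0.85), RHOU (0.83) and ASNSD1 (0.78), and SYNJ2 was the 1 gene in both lists. None of the 10 places went to a gene of the paraspeckle lists.

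The wider set of paraspeckle genes, listed from general knowledge, held 69 further genes, of which 61 passed the authors' filter. In FoEV against Co, 29 lay higher and 32 lower (median log2 fold change -0.00, beside 0.01 over all filtered genes). The quasi-likelihood test of edgeR called 0 of the 61 at an adjusted p under 0.05. Of the 61, 5 of the higher and 8 of the lower genes had an unadjusted p under 0.05, beside 8.18% and 6.88% of all genes. For FeEV against Co, 32 lay higher and 29 lower with a median of 0.00, 0 were called by edgeR, and 2 higher and 1 lower genes had an unadjusted p under 0.05, beside 1.83% and 2.32% of all genes. In FoEV against FeEV, 28 lay higher and 33 lower with a median of -0.02, 0 were called by edgeR, and 2 higher and 1 lower had an unadjusted p under 0.05, beside 4.83% and 3.69% of all genes. The likelihood ratio test called 2 of them in FoEV against Co, ATF2 and HSF1 (2.87% of all genes), and DESeq2 called 1, ATF2 (2.4% of the genes with an adjusted p).

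**Figure D5:**
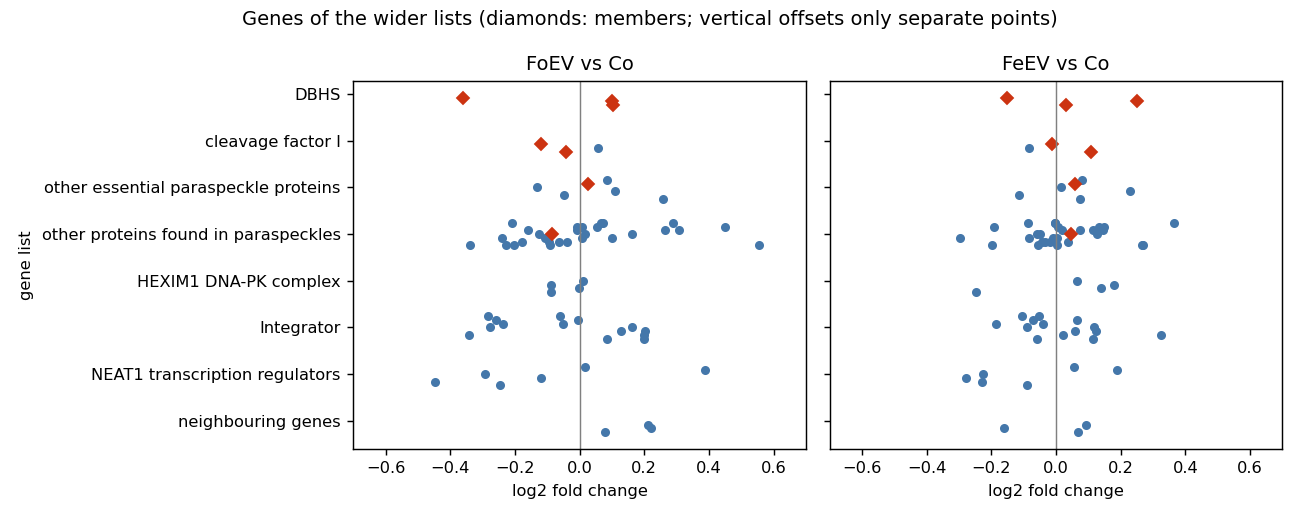
Log2 fold change against Co (horizontal axis) of each gene in the wider lists, 1 line per list, for FoEV (left) and FeEV (right), with a point per gene and diamonds for SFPQ, NONO, PSPC1, RBM14, MATR3, CPSF6 and NUDT21. Points lie on both sides of 0 in most lists, and none reaches the 0.94 and 0.88 of NEAT1.

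Other proteins on which paraspeckles depend showed small differences. HNRNPK, which hinders polyadenylation of the short NEAT1 isoform, had 572 ± 38.6 CPM (SD, n = 5) in Co, 578 ± 40.0 with fresh and 521 ± 48.6 with frozen oEVs, and stood at a log2 of -0.13 in FoEV against Co (SE 0.08, adjusted p = 0.452 by edgeR). DAZAP1, an RNA-binding protein, had 49.1 ± 8.39 CPM in Co and 58.7 ± 6.95 in FoEV, 0.26 higher on the log2 scale (SE 0.12, adjusted p = 0.310 by edgeR). For HNRNPH3 and SMARCA4, the chromatin remodeller BRG1, the log2 fold changes were 0.11 and 0.08 in FoEV and 0.23 and 0.08 in FeEV against Co. CPSF7, the remaining subunit of cleavage factor I, was at 0.06 and -0.08.

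Among the 29 measured genes of further proteins found in paraspeckles, MATR3 included, 13 were higher and 16 lower in FoEV than in Co. CARM1, an arginine methyltransferase, had 104 ± 17.6 CPM in Co, 114 ± 19.4 in FeEV and 117 ± 18.9 in FoEV, with overlapping groups. Under TMM scaling, RBM7, a subunit of a nuclear exosome targeting complex, lay lower in all 5 FoEV libraries (36.1 to 44.4 CPM) than in all Co libraries (45.9 to 57.9 CPM), as did 1.35% of all genes. The difference was a log2 of -0.34 (SE 0.10, adjusted p = 0.148 by edgeR). CIRBP, a cold-inducible RNA-binding protein, had 25.4 ± 3.91 CPM in Co and 34.7 ± 5.02 in FoEV, 0.45 higher on the log2 scale (SE 0.14, adjusted p = 0.165 by edgeR). With fresh oEVs, the log2 fold changes against Co were -0.20 for RBM7 and 0.13 for CIRBP.

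HEXIM1, which binds NEAT1 in a complex with the DNA-dependent protein kinase, had 71.9 ± 7.82 CPM (SD, n = 5) in Co, 60.7 ± 6.12 with fresh and 67.7 ± 6.77 with frozen oEVs. Its log2 fold change was -0.25 in FeEV against Co (SE 0.11, adjusted p = 1.00 by edgeR). The 14 Integrator genes encode a complex that cleaves nascent RNA and limits the long NEAT1 isoform. In FoEV against Co, 6 were higher and 8 lower, and 4 of the lower ones and 0 of the higher ones had an unadjusted p under 0.05, beside 6.88% lower and 8.18% higher of all genes. INTS4 was at 36.1 to 39.3 CPM in Co, 35.0 to 42.4 in FeEV and 25.4 to 34.9 in FoEV. It was thus lower in every FoEV library than in every library of the other treatments under TMM scaling, as 1.35% of all genes were against Co and 0.748% against FeEV, with a log2 fold change of -0.34 against Co (SE 0.11, adjusted p = 0.178 by edgeR) and -0.36 against FeEV (SE 0.11, adjusted p = 0.453 by edgeR).

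Of 6 transcription factors known to act on the NEAT1 promoter in other cells, 2 were higher and 4 lower in FoEV than in Co. At an unadjusted p under 0.05 in edgeR, 1 was higher and 2 were lower, beside 8.18% higher and 6.88% lower of all genes. HSF1, the heat shock factor, was at 37.7 to 45.2 CPM in Co, 41.2 to 50.4 in FeEV and 50.2 to 66.4 in FoEV, with FoEV above Co in every library, as for 1.26% of all genes. The difference from Co was a log2 of 0.39 (SE 0.11, adjusted p = 0.131 by edgeR). ATF2 was at 68.4 to 83.0 CPM in Co, 55.0 to 76.9 in FeEV and 47.2 to 69.8 in FoEV, and stood at a log2 of -0.45 against Co (SE 0.12, adjusted p = 0.118 by edgeR). With fresh oEVs it was 0.19 for HSF1 and -0.23 for ATF2, and no factor had an unadjusted p under 0.05 in that comparison.

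FRMD8 and DPF2, which lie near NEAT1, gave a local comparison. Their log2 fold changes were 0.22 and 0.08 in FoEV against Co, and -0.16 and 0.07 in FeEV against Co, none with an unadjusted p under 0.05. NEAT1 itself stood at 0.94 and 0.88. The neighbours SLC25A45, TIGD3 and LTBP3 had 4, 68 and 118 counts over all libraries and were not tested.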

How the data were processed

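The authors mapped single-end reads to the bovine assembly ARS-UCD1.2 (bosTau9) with the NCBI annotation and deposited read counts per gene, without normalization, as a table of 34773 genes and a filtered table of 10832 genes. The methods name QuasR Qcount for counting, and the submitters' processing notes name Trim Galore 0.4.3.1, HISAT2 2.1.0 and featureCounts 1.6.3. The library kit selects a strand, but how strand was treated in counting is not given in the sources used here.

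Samples were grouped by their titles. The filtered counts were scaled by TMM and fitted with edgeR 4.0.16 in R 4.3.3 (estimateDisp, glmQLFit with robust=TRUE, glmQLFTest). Treatment was the only factor, with Benjamini-Hochberg adjustment over 10832 genes. The 95% intervals use the total degrees of freedom that the fit gave each gene. Alternatives were the size factors of DESeq2 1.42.0 and its Wald test, a likelihood ratio test on robust dispersions, TMM from protein-coding genes, no filter, 2 groups only, thinned counts, replicate blocks and leaving out each library. The log2 CPM for spread and likeness used a prior count of 2. Symbols came from RefSeq (ARS-UCD2.0), which matched 10709 filtered genes by identifier. On simulated data for FoEV against Co with 10832 genes, 75.5% of 200 genes changed by 1 on the log2 scale were recovered, with 3.82% false calls. The simulated counts were drawn independently for each gene from its fitted spread. They held no differences between pools that many genes share, so these rates need not hold for the real libraries. Summaries used Python 3.11.15, pandas 2.3.3, numpy 2.4.6, scipy 1.17.1 and matplotlib 3.10.9.

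The members and the gene lists were chosen with earlier results of these data known. Named from the lists were 9 fixed genes (MALAT1 unmeasured) and, in each comparison, at most 5 genes with the smallest p among those with an unadjusted p under 0.01. Like genes were the 5 with the highest Pearson r with NEAT1 in each of 2 measures. Transcript lengths were not at hand, so levels were not compared between genes, and no sequence is shown because none was at hand. Some genes of the lists are not reported here by name.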

Additional observations from a re-analysis of the deposited data

Results flagged for a closer look

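In 63 groups of 5 libraries (21 named genes in 3 treatments), 3 single libraries stood apart from the other 4 of their group by a gap above the 95% critical share of the group's range, 0.71. Chance alone gives this in about 5% of groups. RBM14 in FoEV was at 95.3 CPM in replicate 3, with the next library at 82.9, which is 0.883 of the range. HSF1 in FoEV was at 66.4 CPM in replicate 4, with the next at 54.6. RBM7 in FeEV was at 50.7 CPM in replicate 1, with the next at 45.4.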

How the results depend on the processing

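In FoEV against Co, where 0 of the 8 genes were called, 2 were called without the filter on low counts, by the Wald test of DESeq2 and by the likelihood ratio test (NEAT1 and SFPQ in each). Over all genes, these fits called 0.679%, 2.4% (of the genes with an adjusted p) and 2.87%, in that order. With only the 2 groups compared 1 was called, NEAT1, beside 5 of all 10832 genes. With the replicate block by title number 1 was called, NEAT1, beside 57 of all genes. With the replicate block by description number 1 was called, again NEAT1, beside 12 of all genes. Leaving out single libraries gave 0 to 1, with NEAT1 called without Co replicate 2, FoEV replicate 2 or FoEV replicate 3. The counts over all genes in those fits are not given here. In FeEV against Co, 1 gene instead of 0 was called without the filter, by DESeq2 and by the likelihood ratio test, NEAT1 each time. Over all genes, these fits called 0.051%, 0.00923% and 0.0554%, in that order. Of the wider list in FoEV against Co, 1 gene was called without the filter and by DESeq2, and 2 by the likelihood ratio test. The shares of all genes called in FoEV against Co by these fits are those given above. NEAT1 was selected on both differences, so its calls are a description and no test of it. For these counts of calls, the cause was not tested. The other counts of called genes among the 8 and in the wider list stayed at 0. Without the filter 25470 genes were tested, and the median log2 fold change of all genes in FoEV against Co moved to 0.05.

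The mean level of NEAT1 moved by less than the spread between libraries in every alternative, and with single libraries left out it ran from 310.4 to 348 CPM in Co, from 566 to 639 in FeEV and from 609 to 686 in FoEV. Its log2 fold change against Co then ran from 0.87 to 1.04 for FoEV and from 0.77 to 0.97 for FeEV. Differences near 0 changed sign in some fits without a call. In FoEV against Co, RBM14 ran from -0.026 to 0.074 and CPSF6 from -0.13 to 0.052 with single libraries left out. In FeEV against Co, NONO ran from -0.012 to 0.069 and NUDT21 from -0.067 to 0.062, and NUDT21 was at 0.093 with the replicate block by description number. In FoEV against FeEV, NEAT1 ran from -0.0070 to 0.17 and RBM14 from -0.080 to 0.0069.

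Whether the replicate numbers of the titles pair the libraries was not settled. The correlation of same-numbered libraries ran from -0.33 to 0.39 for FoEV and Co. It ran from -0.25 to 0.47 for FeEV and Co, and from -0.0035 to 0.48 for FoEV and FeEV. In that order, the mean was 0.063, 0.16 and 0.20 for the same number, against -0.016, -0.040 and -0.050 for other numbers. With the block by title number, edgeR called 57 genes of all in FoEV against Co instead of 1. Libraries correlated best with their own number in 1 of 5 cases there, and in 2 of 5 in each of the other comparisons.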
